A study of Mus musculus with 2 samples.

Results

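The lysosomal cathepsins Ctsa, Ctsb, Ctsc, Ctsd, Ctsh, Ctsk, Ctsl, Ctss and Ctsz and the asparaginyl endopeptidase legumain (Lgmn) were taken by gene symbol from the count tables of liver non-parenchymal cells (NPCs) of a normal and a fibrotic mouse, and described in macrophages, dendritic cells, endothelium and mesenchyme. All 10 genes were listed in both tables, among 21722 genes listed in at least 1 of them. NPCs are the cells of the liver other than hepatocytes, here enriched by low-speed spins that removed hepatocytes and by a density gradient. Both mice were male C57BL/6, 8 weeks old, and were injected intraperitoneally 2 times a week for 6 weeks. The fibrotic mouse received carbon tetrachloride (CCl4) in olive oil, a hepatotoxin whose repeated dosing scars the liver, and the normal mouse, labelled as the quiescent state, received olive oil alone. The study asked how liver cells differ between the normal and the fibrotic state. Each state was 1 mouse and 1 single-cell library, so every ratio below compares 2 mice, no test between states was possible and no p-value is given. Every interval is a 95% interval for counting error only.

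Lysosomal proteases are made as inactive precursors, carried to acidic compartments largely by mannose 6-phosphate receptors, and activated there to break down proteins taken up by endocytosis, phagocytosis or autophagy. Most cathepsins are cysteine proteases of the papain family, while Ctsd is an aspartic protease, Ctsa a serine carboxypeptidase that also stabilises lysosomal glycosidases, and Lgmn a separate cysteine protease that cleaves after asparagine and processes other cathepsins. In the liver, Kupffer cells, the resident macrophages, and liver sinusoidal endothelial cells (LSECs) are scavengers with many lysosomes. Several of these enzymes can also act outside cells, where Ctsk is known as a collagenase.

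The windows shown first are the promoter stretches of members that hold the letters CACGTG, since basic helix-loop-helix leucine zipper factors, among them TFEB and its relatives that switch on lysosomal genes, bind sequences around this core. RefSeq promoter windows of GRCm38.p6, from 250 bases before to 50 bases after a start, were found for 8 of the 10 members, 10 windows in all. CACGTG reads the same on both strands and was present in 4 of the 10 windows, those of 4 members, against 2349 of 32851 windows of all genes (7.15%). Below, each window is written 5′ to 3′ on the strand of the gene, with CACGTG in capitals. The Ctsa window lies at chr2:164833523-164833822 on the plus strand, the Ctsd window at chr7:142387778-142388077, the Ctsl window at chr13:64370471-64370770 and the Lgmn window at chr12:102439043-102439342, these on the minus strand. As GENCODE draws the genes, the windows of Ctsa, Ctsl and Lgmn lie wholly inside them, downstream of the gene's outermost start, and that of Ctsd spans it.
Ctsa, window 2: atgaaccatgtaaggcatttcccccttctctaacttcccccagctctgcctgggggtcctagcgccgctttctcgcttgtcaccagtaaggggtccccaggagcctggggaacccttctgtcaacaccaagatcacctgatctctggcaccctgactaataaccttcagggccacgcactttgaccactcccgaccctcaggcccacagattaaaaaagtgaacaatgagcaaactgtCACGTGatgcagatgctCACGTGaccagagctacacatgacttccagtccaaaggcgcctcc
Ctsd: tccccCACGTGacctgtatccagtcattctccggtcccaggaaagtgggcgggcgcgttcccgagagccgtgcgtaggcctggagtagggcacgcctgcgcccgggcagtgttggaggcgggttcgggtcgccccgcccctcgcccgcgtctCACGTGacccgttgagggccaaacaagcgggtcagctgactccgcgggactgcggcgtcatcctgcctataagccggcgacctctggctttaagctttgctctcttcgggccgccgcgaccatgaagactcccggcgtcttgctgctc
Ctsl: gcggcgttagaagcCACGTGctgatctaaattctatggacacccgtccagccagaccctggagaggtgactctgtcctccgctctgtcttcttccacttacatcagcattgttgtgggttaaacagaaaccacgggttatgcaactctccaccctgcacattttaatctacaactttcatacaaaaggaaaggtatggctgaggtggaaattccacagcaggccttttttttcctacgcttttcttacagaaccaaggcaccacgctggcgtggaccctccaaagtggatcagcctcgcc
Lgmn, window 1: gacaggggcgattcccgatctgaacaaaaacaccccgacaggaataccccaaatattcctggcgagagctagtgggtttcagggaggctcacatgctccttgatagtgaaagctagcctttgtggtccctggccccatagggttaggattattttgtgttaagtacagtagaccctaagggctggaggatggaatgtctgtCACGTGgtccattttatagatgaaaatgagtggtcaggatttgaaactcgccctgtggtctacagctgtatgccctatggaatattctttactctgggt
The longer palindrome that extends CACGTG by GT before and AC after it was in 0 of the 10 windows and in 107 (0.326%) of all windows. The windows of Ctsc, Ctsk, Ctss and Ctsz, the first of Ctsa and the second of Lgmn held neither. A match is a string of letters, and no binding was measured.

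In the GENCODE annotation of GRCm38 the members lie on 7 chromosomes. Ctsk (chr3:95499256-95509362) and Ctss (chr3:95526786-95556403) are neighbours on the plus strand, 17423 bases apart. Ctsa (chr2:164832873-164841032) and Ctsz (chr2:174427493-174439039) share chromosome 2, and Ctsc (chr7:88278085-88310888) and Ctsd (chr7:142375911-142388038) chromosome 7. The others are Ctsb (chr14:63122462-63145923), Ctsh (chr9:90054152-90076089), Ctsl (chr13:64359337-64370890) and Lgmn (chr12:102394084-102439813).

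The normal library held 8130 cells with 44062632 unique molecular identifiers (UMIs, counted RNA molecules) and the fibrotic library 6437 cells with 53288463, of which 7471 and 6132 cells passed a limit of 10% mitochondrial UMIs. The libraries shared 15 cell barcodes. Cells were clustered in each library and named by markers, with the suffix "-like" for a rebuilt name. Macrophages (Kupffer-cell-like and macrophage-like) numbered 283 normal and 526 fibrotic cells, dendritic cells 234 and 171, endothelium 1943 and 1669, and mesenchyme 208 and 571. Defining markers were present where the names require them. The summed level of C1qa, C1qb and C1qc, complement genes of macrophages, was 122 UMIs per 10000 UMIs in normal and 79.1 in fibrotic macrophages, Xcr1 and Cd209a marked the dendritic cells, Stab2 and Clec4g the endothelium, and Col1a1 and Col3a1 the mesenchyme. The makeup of the classes differed between the mice. Kupffer-cell-like cells were 207 of the 283 normal and 268 of the 526 fibrotic macrophages. The fibrotic mesenchyme also held 65 cells with macrophage markers, a sub-cluster that the normal library lacked, and 132 cells with endothelial markers, against 15 in the normal mesenchyme. The 208 normal mesenchymal cells in turn held sub-clusters of 27 cells with neutrophil markers and 21 with plasma cell markers. Mesothelial markers summed to 54.9 UMIs per 10000 in normal and 10.7 in fibrotic mesenchyme, and portal fibroblast markers to 49.3 and 21.8. In the normal endothelium, sub-clusters of 132, 112 and 14 cells had more mesenchymal than endothelial markers among their leading genes, and no fibrotic one did. The 112 cells were led by Npr3, Col8a1, Gja5, Cyp1a1 and Nrg1, which also led 64 fibrotic cells named portal vessel endothelium. This contrast thus rests partly on the names. Sub-clusters with markers of cycling cells held 44, 42 and 9 cells of the fibrotic mesenchyme against 15 of the normal one, and cycling markers summed to 1.08 in normal and 10.1 in fibrotic dendritic cells, 0.692 and 3.53 in endothelium and 3.79 and 13.8 in mesenchyme. All these cells were kept in the totals of their group. Ratios over the sub-clusters with a class name alone are given further below, for some members in mesenchyme and as a range in endothelium. No ratio without cycling cells was computed for dendritic cells. The median UMIs per cell were 6327 and 12646.5 in macrophages and 9660.5 and 19384 in mesenchyme, so levels are expressed per 10000 UMIs: the UMIs of a gene, summed over the cells, divided by those of all genes. Since a UMI is counted once per molecule from the end of the transcript, such levels need no correction for length and can be set side by side between genes.

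Macrophage RNA outside macrophages differed between the libraries and stands beside every ratio in the other cells. The summed C1q level was 1.81 in normal and 6.17 in fibrotic endothelium, 2.14 and 9.73 in dendritic cells, 2.16 and 8.52 in mesenchyme, and 2.71 and 11.4 in NK/T-cell-like cells, lymphocytes that do not make C1q. The summed level of the 12 macrophage markers was 6.14 and 13.9 in endothelium, 9.90 and 21.8 in dendritic cells and 6.07 and 16.4 in mesenchyme, with none of the 12 at 0 in either library. Hepatocyte markers went the other way, from 136 to 11.98 in endothelium and from 126 to 9.29 in macrophages over 11 genes. Because RNA released by one cell type keeps its genes in 1 ratio, each member's level was set beside the level it would have at the ratio to C1q seen in the macrophages of the same library, called the C1q-scaled level below. It assumes that all C1q in a class came from outside it. It also pools the 2 macrophage classes, which did not hold the members in 1 ratio. In the fibrotic library Ctsd was 66.7 in Kupffer-cell-like and 113 in macrophage-like cells, and Ctsc 18.6 and 5.24. The multiples thus depend on which macrophages released the RNA. What share of any ratio comes from RNA of other cells was not tested.

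In the normal liver, 6 of the 10 members had their highest level in Kupffer-cell-like or macrophage-like cells among the 18 named classes, and in the fibrotic liver 8 did. The share of all genes with their highest level in these 2 classes was not counted, so the 2 numbers only describe the list. Together the 10 genes made up 1.62% of the UMIs of normal macrophages and 3.45% of those of fibrotic macrophages. Their share was 0.352% and 0.628% in dendritic cells, 0.381% and 0.645% in endothelium, and 0.304% and 0.531% in mesenchyme. Ctsb had the highest level of the 10 in macrophages of both libraries, while Ctsl was the leading member in normal endothelium and normal mesenchyme and Ctss in normal dendritic cells.

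**Figure D1:**
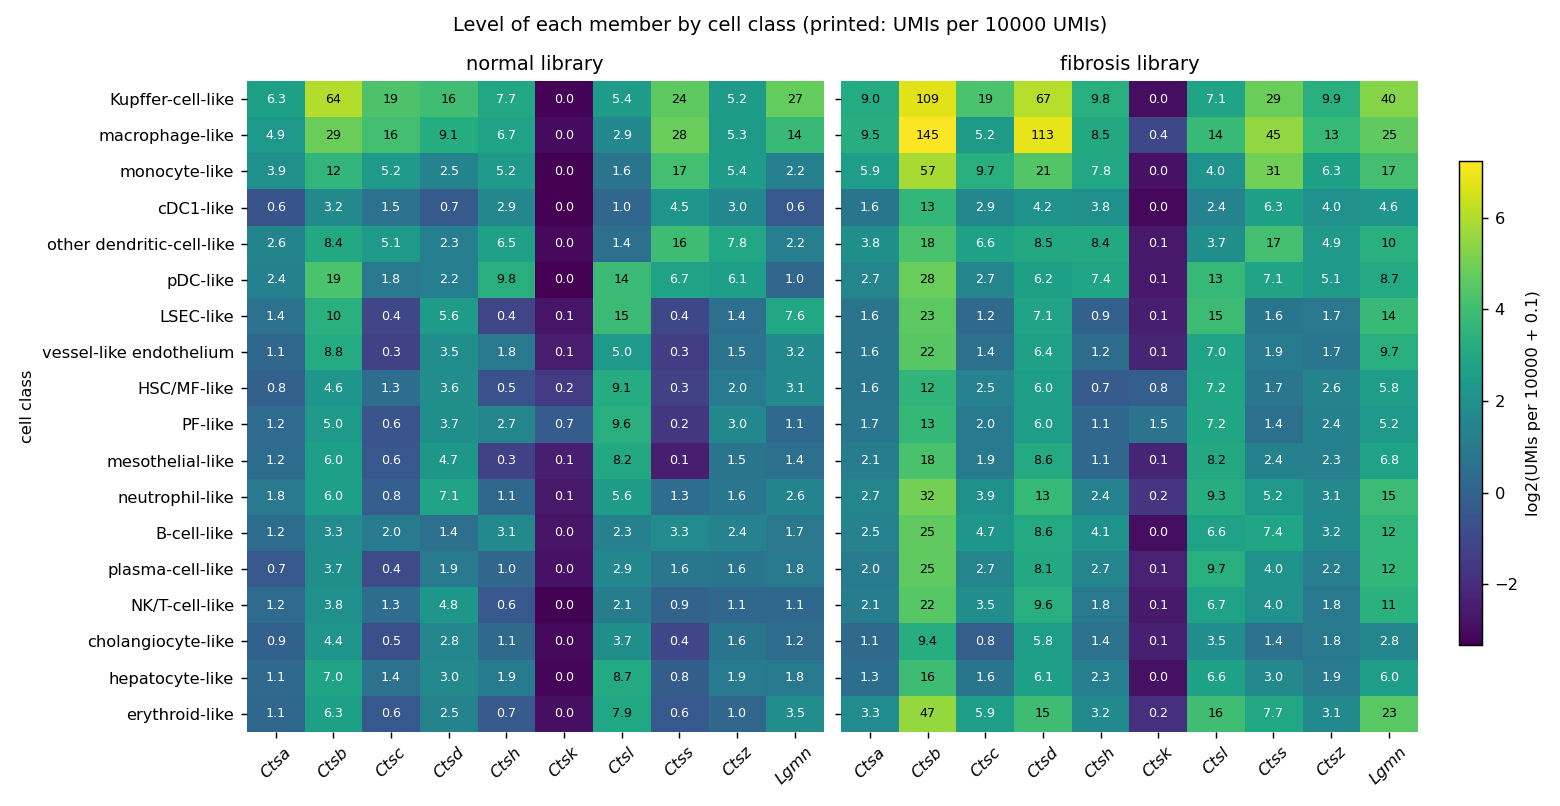
Level of each member (UMIs per 10000 UMIs, colour on a log scale) in every named class of the normal and the fibrotic library. Ctsb and Ctsd are high in fibrotic Kupffer-cell-like and macrophage-like cells, Ctsl is highest in LSEC-like (14.6) and pDC-like (14.4) cells of the normal library and in erythroid-like (16.0), LSEC-like (15.1), macrophage-like (13.8) and pDC-like (13.4) cells of the fibrotic one, and Ctsk is low everywhere outside the mesenchymal classes, with 0.731 in normal and 1.52 in fibrotic PF-like cells. The fibrotic erythroid-like cells had a median of 998.5 UMIs.

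Ctsd, the aspartic protease, had the largest difference in level of the 10 members between the macrophages of the 2 mice. Its level was 14.45 (13.91 to 15.004) in normal and 93.5 (92.8 to 94.2) in fibrotic macrophages, a ratio of 6.47 (6.23 to 6.72). Both macrophage classes were higher in the fibrotic library, Kupffer-cell-like cells at 16.0 and 66.7 (ratio 4.16) and macrophage-like cells at 9.07 and 113 (ratio 12.5). In normal macrophages 66.1% (60.2 to 71.6) of cells had a Ctsd UMI once every cell was thinned to 1000 UMIs, and in fibrotic macrophages 98.3% (96.8 to 99.2). Unthinned shares were 94.7% and 100%, and NK/T-cell-like cells, lymphocytes with median depths of 3674 and 2579.5 UMIs, had thinned shares of 37.3% and 65.8%. Nearly all fibrotic macrophages thus carried the transcript even at equal depth. Dendritic cells had 1.496 and 6.48, a ratio of 4.33 (3.77 to 4.98) and of 10.4 under a mitochondrial limit of 5%, which left 70 normal and 108 fibrotic dendritic cells, and 9.54 at a clustering resolution of 1.5. The 3 cells with most Ctsd held 24.2% of its UMIs in the normal and 29.7% in the fibrotic dendritic cells. In mesenchyme the level was 4.62 and 8.74 (ratio 1.89, 1.78 to 2.02, and 1.15 with the lowest level over the classes of each library taken off), and in endothelium 4.99 and 7.06 (ratio 1.42, 1.37 to 1.46). The fibrotic level was 0.969 times the C1q-scaled level in endothelium, 0.869 times in mesenchyme and 0.564 times in dendritic cells, where the normal levels had been 23.3, 18.1 and 5.90 times theirs. The fibrotic Ctsd level was thus below the C1q-scaled level in all 3 of these groups, and with the lowest class level taken off the endothelial ratio turned to 0.656.

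Ctsb, a cysteine protease with both endopeptidase and dipeptidase activity, was the most abundant member in macrophages of both mice. It stood at 56.4 (55.4 to 57.5) in normal and 130 (129 to 131) in fibrotic macrophages, 2.30 times as high (2.26 to 2.35). The difference was larger in macrophage-like cells, with 29.1 and 145 (ratio 4.99), than in Kupffer-cell-like cells, with 64.4 and 109 (ratio 1.69). Ctsb was also higher in the fibrotic library in the other groups, at 5.85 and 15.6 in dendritic cells (ratio 2.67, 2.47 to 2.88, 4.85 under the 5% limit and 5.62 at a clustering resolution of 1.5), 10.2 and 23.2 in endothelium (2.28, 2.23 to 2.33) and 7.22 and 17.4 in mesenchyme (2.41, 2.29 to 2.54). Lymphocytes differed more, with 3.82 and 22.4 in NK/T-cell-like cells (ratio 5.85) and 3.34 and 25.3 in B-cell-like cells (ratio 7.57). The ratio was at least 1.5 in 17 of the 18 classes. In thinned cells, 62.4% of normal and 89.7% of fibrotic endothelial cells had a Ctsb UMI, against 30.4% and 89.0% of NK/T-cell-like cells (unthinned, 97.6% and 99.7% against 71.0% and 99.4%, at median depths of 5978 and 7608 against 3674 and 2579.5 UMIs). The normal endothelial share was above that of the lymphocytes, and the fibrotic shares, both near 90%, did not differ beyond counting error. Set against C1q, fibrotic endothelium had 2.29 times, mesenchyme 1.25 times and dendritic cells 0.976 times the C1q-scaled level.

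Ctss, the cysteine protease best known for cutting the invariant chain from MHC class II, was abundant in both macrophages and dendritic cells. It was 25.1 (24.3 to 25.8) in normal and 38.5 (38.0 to 38.9) in fibrotic macrophages (ratio 1.54, 1.49 to 1.58), with macrophage-like cells the highest class in both libraries at 28.4 and 45.4. Dendritic cells, which use it for antigen presentation, had 10.1 and 11.7, a ratio of 1.16 (1.08 to 1.24) that was 2.57 under the 5% limit. Within them cDC1-like cells had 4.51 and 6.27, below the 15.6 and 16.7 of the other dendritic cells. Endothelium and mesenchyme had very little, 0.377 and 1.72 in endothelium (ratio 4.57, 4.13 to 5.06) and 0.691 and 3.01 in mesenchyme (ratio 4.35, 3.71 to 5.13). These large ratios rest on low levels, at 1.01 and 0.574 times the C1q-scaled level in endothelium and 1.56 and 0.726 times in mesenchyme, and 48.7% of the normal mesenchymal Ctss UMIs came from 3 cells. With the lowest class level taken off the endothelial ratio was 1.11 and the mesenchymal one 2.65, and under the 5% limit they were 7.08 and 13.8. The lowest classes for Ctss were themselves mesenchymal, mesothelial-like in the normal and PF-like in the fibrotic library. In the mesenchymal sub-clusters with a class name the ratio was 8.29 (5.38 to 13.5), on 21 normal UMIs. NK/T-cell-like cells had 0.928 and 3.995.

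Ctsl, a broad endopeptidase, was the leading member of the normal endothelium. LSEC-like cells had the highest level of the 18 classes in the normal library, 14.6, with pDC-like cells at 14.4 overlapping within counting error, and in the fibrotic library erythroid-like cells at 16.0 and LSEC-like cells at 15.1 overlapped at the top, followed by macrophage-like cells at 13.8. The fibrotic erythroid-like class had a median of 998.5 UMIs a cell. Its leading genes held Ighg2b, Ighg2c, Cyp3a11 and Serpina1d beside haemoglobin genes. The level in all endothelium was 12.6 (12.4 to 12.8) and 13.6 (13.4 to 13.8), a ratio of 1.08 (1.06 to 1.11) that was 0.968 with the lowest class level taken off. Vessel-like endothelium had less, 4.98 and 7.04. It held only sub-clusters named central vein endothelium in the normal library and also portal-named ones in the fibrotic library, so makeup and level cannot be told apart. The endothelial level was 174 times the C1q-scaled level in the normal and 16.0 times in the fibrotic library, the highest multiple of the 10 members in fibrotic endothelium. In thinned endothelial cells 64.6% and 71.2% had a Ctsl UMI, against 20.3% and 47.5% of NK/T-cell-like cells (unthinned, 96.3% and 98.6% against 50.2% and 81.2%). Mesenchyme had 9.28 and 7.71 (ratio 0.831, 0.793 to 0.872), lower in the fibrotic library in both HSC/MF-like (0.794) and PF-like cells (0.753), although counted per cell the mesenchymal ratio was 1.68. HSC/MF-like cells carry markers of hepatic stellate cells and myofibroblasts, and PF-like cells those of portal fibroblasts. Macrophages went the other way, with 4.86 and 10.9 (ratio 2.25, 2.10 to 2.41), as did dendritic cells, with 1.20 and 3.10 (ratio 2.57, 2.17 to 3.05).

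Ctsk, the collagen-degrading cathepsin of osteoclasts and fibroblasts, was the rarest member and the only one highest in mesenchyme. Its level was 0.236 (0.177 to 0.308) in normal and 0.613 (0.571 to 0.658) in fibrotic mesenchyme, a ratio of 2.59 (1.97 to 3.48), and 3.04 (2.29 to 4.12) without the sub-clusters that carried macrophage or endothelial markers. PF-like cells were highest in both libraries, at 0.731 and 1.52, followed by HSC/MF-like cells at 0.246 and 0.804. The fibrotic maximum, 2.49, was in 1 PF-like sub-cluster of 60 cells led by Mfap4, an elastic fibre protein gene. Only 3.37% (1.36 to 6.81) of normal and 6.16% (4.33 to 8.47) of fibrotic mesenchymal cells had a Ctsk UMI at 1000 UMIs a cell, and these shares did not differ beyond counting error, although 20.2% and 50.4% had one at full depth. The thinned shares of NK/T-cell-like cells were 0.107% and 0.905%. Macrophages had 2 UMIs of Ctsk in the normal library and 181 in the fibrotic one, levels of 0.0106 and 0.237 (ratio 22.4, 6.11 to 186). Resting on 2 normal UMIs, the ratio was 6.95 under the 5% limit, 9.35 without the highest 5% of doublet scores, 10.1 as a mean over cells and 11.1 at a clustering resolution of 0.4. Of the 181 UMIs, 171 were in macrophage-like cells, and 3 cells held 40.9%. With Col1a1, Col1a2 and Col3a1 as the guide to mesenchymal RNA, the fibrotic macrophage level was 27.7 times the level at the mesenchymal ratio. In endothelium Ctsk was 0.0553 and 0.0908, and dendritic cells held 2 and 5 UMIs, with a ratio of 3.95 whose interval (0.647 to 41.5) included 1.

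Ctsc, or dipeptidyl peptidase 1, which activates the granule proteases of leukocytes, was the only member with a lower level per 10000 UMIs in fibrotic than in normal macrophages, a direction that turns when UMIs are counted per cell. It was 18.7 (18.1 to 19.3) in normal and 10.9 (10.6 to 11.1) in fibrotic macrophages, a ratio of 0.582 (0.560 to 0.606). Kupffer-cell-like cells hardly differed, with 19.3 and 18.6 (ratio 0.964, 0.921 to 1.01), while macrophage-like cells had 16.4 and 5.24 (ratio 0.320, 0.294 to 0.349). The near-equal Kupffer-cell-like mean joined 2 fibrotic sub-clusters, at 22.1 in 196 cells and 12.2 in 72 cells led by Cd207, Il18bp and Mmp13. Mmp13 led a macrophage-like sub-cluster in the normal library, so the classes of the 2 libraries did not hold the same sub-clusters. The thinned share of macrophages with a Ctsc UMI was 82.7% (77.8 to 86.9) and 62.4% (58.1 to 66.5), against 12.9% and 34.8% of NK/T-cell-like cells, and the unthinned share was 99.3% and 99.0%. Counted per cell, without dividing by the total, the direction turned and the macrophage ratio was 1.27, as fibrotic macrophages had 2.17 times as many UMIs per cell. All other groups had more Ctsc in the fibrotic library, at 3.31 and 4.85 in dendritic cells (ratio 1.46, 1.30 to 1.64, and 2.70 under the 5% limit), 0.361 and 1.26 in endothelium (3.49, 3.14 to 3.89, and 9.57 with the lowest class level taken off) and 0.801 and 2.34 in mesenchyme (2.92, 2.51 to 3.41). In endothelium these were 1.30 and 1.49 times the C1q-scaled level, and NK/T-cell-like cells, which make Ctsc themselves, had 1.27 and 3.48. For the endothelial ratio of 9.57, the class taken off in the normal library was vessel-like endothelium itself, at 0.314, which left a small remainder.

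Ctsh, an aminopeptidase, and Ctsz, a carboxypeptidase, were shared by macrophages and dendritic cells. Ctsh was 7.44 and 9.04 in macrophages (ratio 1.22, 1.15 to 1.29) and 4.72 and 6.24 in dendritic cells (ratio 1.32, 1.20 to 1.46), with pDC-like cells highest in the normal library at 9.80. It was under 1 UMI per 10000 in endothelium, 0.684 and 0.962 (ratio 1.41, 1.29 to 1.54), and near it in mesenchyme, 0.862 and 1.23 (ratio 1.43, 1.23 to 1.67). Neither direction held under every setting. With the lowest class level taken off the ratio was 0.642 in endothelium and 0.923 in mesenchyme, and the mesenchymal ratio was 0.846 under the 5% limit, 0.922 without the highest 5% of doublet scores and 0.793 in the sub-clusters with a class name. The lowest classes for Ctsh were themselves mesenchymal, mesothelial-like in the normal and HSC/MF-like in the fibrotic library. Pockets of high Ctsh were found in both endothelium and mesenchyme. In the normal endothelium a sub-cluster of 62 cells named central vein endothelium had 5.71, and in the normal mesenchyme a PF-like sub-cluster of 25 cells had 3.95. Across PF-like cells Ctsh was 2.73 in the normal and 1.06 in the fibrotic library, a ratio of 0.389 (0.306 to 0.499), the lowest Ctsh ratio of the 18 classes. The second normal PF-like sub-cluster, of 19 cells, had 0.964, and the 3 fibrotic ones, led by other genes, 0.733 to 1.44, so makeup and level cannot be told apart here.

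For Ctsz the macrophages and dendritic cells differed in direction. Macrophages had 5.26 in the normal and 11.9 in the fibrotic library (ratio 2.26, 2.12 to 2.42), while dendritic cells had 5.42 and 4.47 (ratio 0.824, 0.741 to 0.917, but 1.37 under a mitochondrial limit of 5%). The lower value came from the dendritic cells other than cDC1-like, at 7.76 and 4.91 (ratio 0.633), whereas cDC1-like cells had 2.98 and 3.97 (ratio 1.33). In the normal library those other cells were 76 cDC2-like and 63 mature cells, with Ctsz at 5.23 and 10.4, and in the fibrotic library they formed 1 sub-cluster of 112 cells led by Cd209a and Ccr7, so the difference in makeup and the difference in level cannot be told apart. Endothelial Ctsz was 1.41 and 1.70 (ratio 1.21, 1.13 to 1.29) and mesenchymal Ctsz 2.13 and 2.72 (ratio 1.28, 1.16 to 1.41). Both directions turned with the lowest class level taken off, to 0.0168 in endothelium, where vessel-like cells were themselves the lowest fibrotic class, and to 0.938 in mesenchyme.

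Ctsa, the serine carboxypeptidase also known as protective protein, differed moderately. It was 5.95 (5.61 to 6.31) and 9.28 (9.07 to 9.50) in macrophages, a ratio of 1.56 (1.46 to 1.66), and 1.61 and 2.76 in dendritic cells (1.71, 1.46 to 2.01, and 3.34 under the 5% limit). In mesenchyme it was 1.14 and 1.88 (ratio 1.65, 1.45 to 1.88), and in endothelium 1.31 and 1.62 (ratio 1.24, 1.16 to 1.32, turning to 0.642 with the lowest class level taken off). Kupffer-cell-like, macrophage-like and monocyte-like cells were its 3 highest classes in both libraries.

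Lgmn was highest in Kupffer-cell-like cells of both libraries, at 26.6 and 39.6, and its ratio was smaller in macrophages than in every other of the 4 groups. All macrophages together had 23.7 (23.0 to 24.4) and 31.1 (30.7 to 31.5), a ratio of 1.32 (1.27 to 1.36). Endothelium, the second site of Lgmn among the 4 groups in both libraries, had 6.24 and 13.3 (ratio 2.13, 2.07 to 2.19), with LSEC-like cells at 7.60 and 14.0. In mesenchyme it was 3.40 and 7.42 (ratio 2.18, 2.03 to 2.35), and in dendritic cells 1.44 and 7.53 (ratio 5.22, 4.55 to 6.00, and 11.5 under the 5% limit). NK/T-cell-like cells had 1.07 and 10.5, a ratio of 9.87 (8.85 to 11.03), and the ratio was at least 1.5 in 17 of the 18 classes, all but Kupffer-cell-like cells (1.49). The fibrotic level was 5.47 times the C1q-scaled level in endothelium, 2.21 times in mesenchyme, 1.97 times in dendritic cells and 2.35 times in NK/T-cell-like cells. In thinned cells 44.4% and 72.7% of endothelial cells had an Lgmn UMI, against 9.99% and 67.1% of NK/T-cell-like cells (unthinned, 89.7% and 99.0% against 30.3% and 94.0%).

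**Figure D2:**
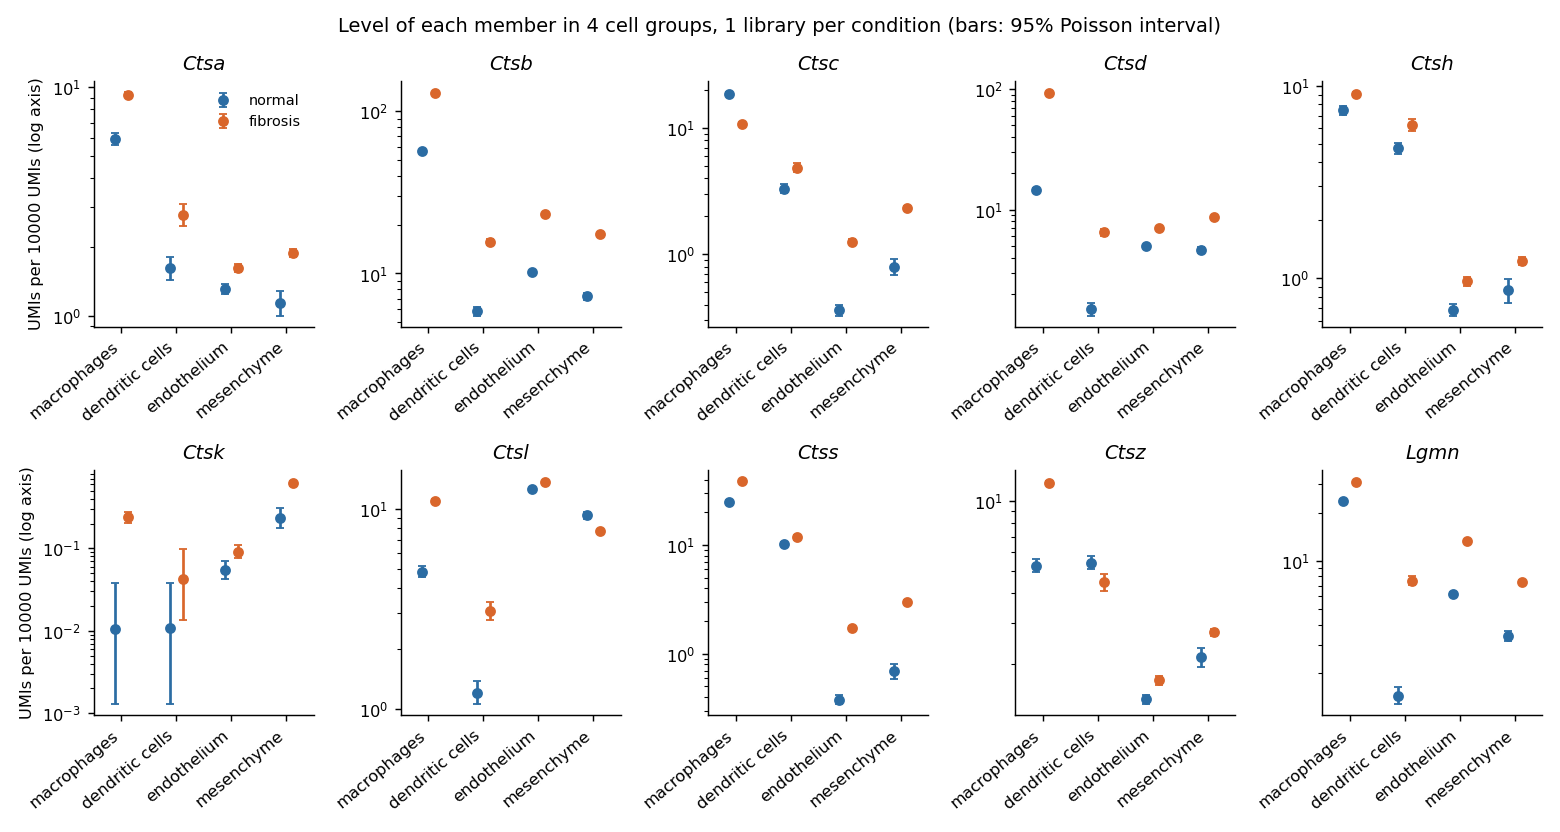
Level of each member (UMIs per 10000 UMIs) in macrophages, dendritic cells, endothelium and mesenchyme of the normal and the fibrotic mouse, 1 library each, with 95% counting intervals; every panel has its own vertical axis. Fibrotic macrophages are above normal macrophages in 9 of 10 panels, and Ctsc is the exception with 18.7 and 10.9 (counted per cell its ratio is 1.27).

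Counted over the list, 7 of the 10 members had a macrophage ratio of at least 1.5 and 1, Ctsc, a ratio of at most 1/1.5, while 12.5% and 13.4% of the 3592 genes measured in macrophages were past these limits. The median ratio of the members was 1.87, beside 1.02 for all genes. Ctss and Ctsa lay close to the limit. Ctss was below 1.5 under 4 of 12 alternatives, at 1.43 to 1.49, and Ctsa under 1, at 1.496. Ctsc was at or below 1/1.5 under 10 of 12, but not counted per cell or with every cell weighing the same. With the lowest class level taken off, 6 members were at or above 1.5 and 1 at or below 1/1.5, beside 17.2% and 38.2% of genes. In dendritic cells 6 members were at or above 1.5 and none at or below 1/1.5, beside 21.4% and 9.82% of 3839 genes. Their median ratio was 2.10, but the median of all genes was 1.15 there, a shift of 0.20 on the log2 scale, and relative to it 5 members were at or above 1.5. Endothelium had 5 and 0 members past the limits, beside 8.73% and 6.76% of 4157 genes, with a median of 1.52, but with the lowest level over the classes of each library taken off, 3 were at or above 1.5 and 4 at or below 1/1.5, beside 8.13% and 20.5% of 4155 genes on that scale. Counted per cell, 9 endothelial members were at or above 1.5, beside 37.7% of genes. Mesenchyme had 7 and 0, beside 10.9% and 8.69% of 4178 genes, with a median of 2.03. With the lowest class level taken off it had 5 and 1, beside 12.9% and 23.0% of 4166 genes, as Ctsa went to 1.30, Ctsd to 1.15 and Ctsl to 0.639. In each group 9 of the 10 members had a mean level of at least 0.5 over the 2 libraries, the minimum set for the genes of these percentages and all-gene medians, and Ctsk did not. Of these 9 members, 6 were at or above 1.5 in macrophages (median 1.56) and 5 in dendritic cells (1.71). In endothelium 4 were (median 1.42), and in mesenchyme 6 (1.89). In NK/T-cell-like cells all 10 members were at or above 1.5, with a median of 3.06, beside 22.2% of genes. In erythroid-like cells, at median depths of 2705 and 998.5 UMIs, 10 were, with a median of 5.47, beside 58.6%. The share of members above 1.5 was thus higher than that of all genes in these classes as well. The list was chosen with earlier results of these data known, and the counts are a description.

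**Figure D3:**
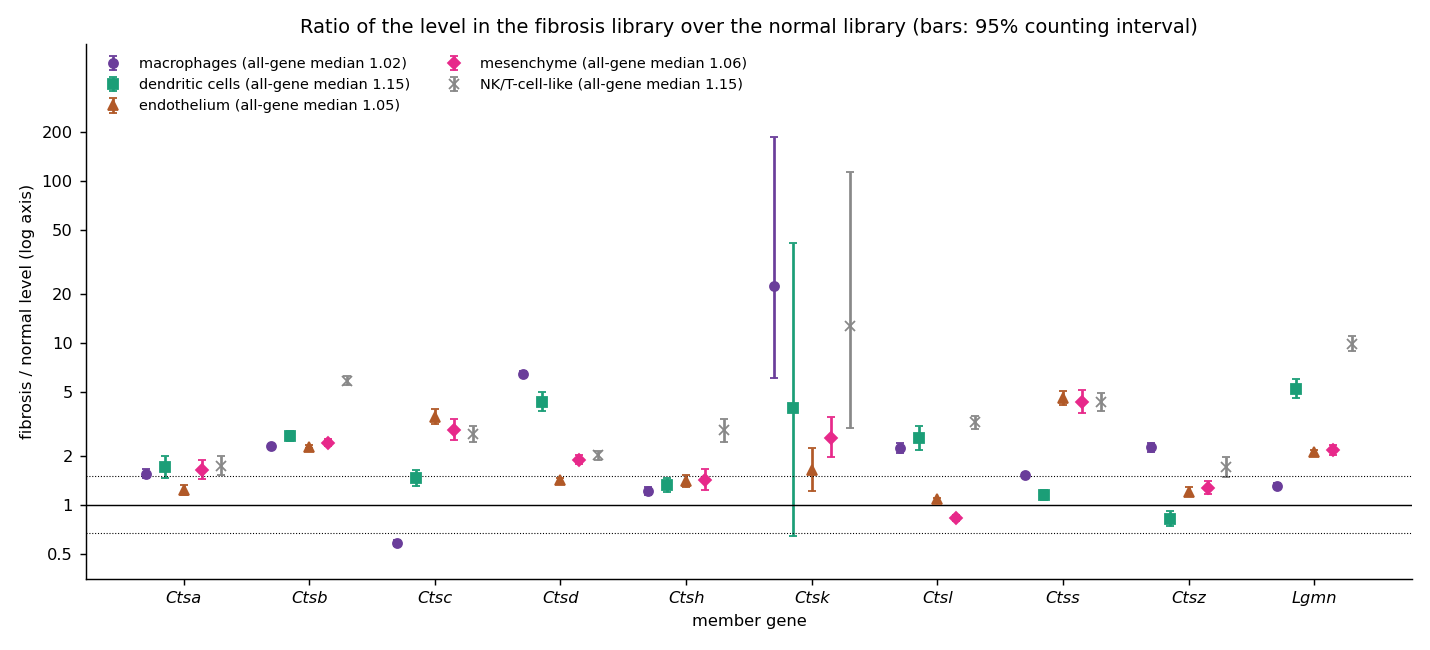
Ratio of the fibrotic to the normal level (log axis) of each member in the 4 cell groups and in NK/T-cell-like cells, with 95% counting intervals and lines at 1, 1.5 and 1/1.5. Ctsd in macrophages is at 6.47 and Ctsc in macrophages at 0.582, the only points of the 4 groups at or below 1/1.5 being that of Ctsc, which is at 1.27 when counted per cell.

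The macrophages of each library fell into 4 sub-clusters, which set the differences between the mice against the variation within a mouse. The lowest fibrotic Ctsd level among sub-clusters was 47.1 and the highest normal one 18.1, and for Ctsb these were 99.8 and 67.0, so neither gene overlapped between the libraries. Ctsa (8.21 and 6.49), Ctsz (8.71 and 6.998) and, narrowly, Ctsh (7.82 and 7.76) did not overlap either. Ctsk, Ctsl, Ctss and Lgmn did. The share of all genes without overlap was not counted. The normal sub-clusters were 2 Kupffer-cell-like ones of 110 and 97 cells and 2 macrophage-like ones, of 54 cells led by Mmp13 and Cx3cr1 and of 22 cells led by Mmp12 and Cxcl13. In the fibrotic library a Kupffer-cell-like sub-cluster of 196 cells was led by Cd163, C6 and Clec4f, and another of 72 cells by Cd207, Il18bp and Mmp13. The macrophage-like cells were 157 cells led by Fabp5, Syngr1 and Gpnmb, and 101 cells led by Cbr2, F13a1 and Cx3cr1. Ctsc overlapped between the libraries, from 15.9 to 20.1 in the normal sub-clusters, and at 22.1 and 12.2 in the fibrotic Kupffer-cell-like and 3.87 and 8.71 in the macrophage-like sub-clusters. The Gpnmb-led sub-cluster, at the low end for Ctsc, had the highest Ctsd (125), Ctsb (149), Ctsl (17.5), Ctsz (14.98) and Ctsk (0.492) of the 8, whereas the Cbr2-led one had Ctsl at 4.34 and Ctss at 49.7, the highest Ctss. Lgmn ran from 10.5 to 27.0 in the normal and from 24.6 to 44.1 in the fibrotic sub-clusters, highest in the Cd163-led Kupffer-cell-like cells.

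**Figure D4:**
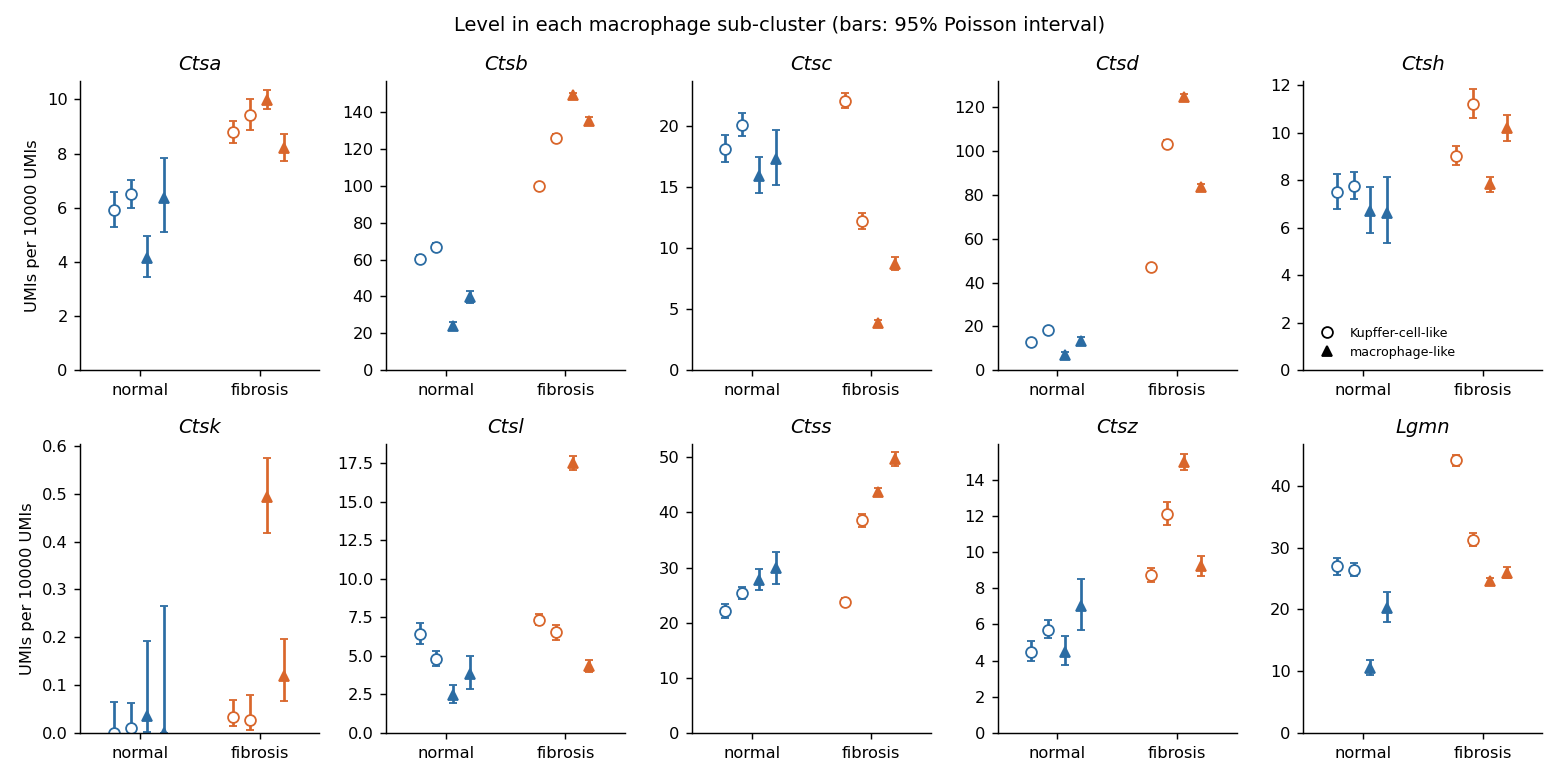
Level of each member (UMIs per 10000 UMIs) in the 4 macrophage sub-clusters of the normal and the 4 of the fibrotic library, with 95% counting intervals; every panel has its own vertical axis. The fibrotic sub-clusters lie above all normal ones for Ctsd (47.1 to 125 against 7.12 to 18.1), Ctsb, Ctsa, Ctsz and, narrowly, Ctsh. They overlap with them for Ctsc, Ctsk, Ctsl, Ctss and Lgmn. The share of all genes without overlap was not counted.

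In mesenchyme, the fibrotic sub-cluster of 65 cells with macrophage markers had Ctsb at 44.6, Ctsd at 26.1, Ctss at 12.98 and Ctsc at 6.31, levels between those of mesenchyme and of macrophages. Without it and the sub-clusters with endothelial markers, the ratios for Ctsb, Lgmn, Ctss and Ctsc were 2.09, 2.08, 3.28 and 2.67, those for Ctsd and Ctsa were 1.55 and 1.64, and Ctsh went from 1.43 to 1.03 (0.871 to 1.23). The number of members at or above 1.5 was 7 there too, beside 13.3% of 4131 genes. That set still held the normal cells with neutrophil or plasma cell markers. In the sub-clusters with a mesenchymal class name alone, 115 normal and 279 fibrotic cells, 7 members were at or above 1.5, beside 16.9% of 3981 genes. There Ctss was at 8.29, Lgmn at 3.08, Ctsb at 2.63, Ctsc at 2.57, Ctsd at 1.61 and Ctsh at 0.793. The mesenchymal sub-clusters with endothelial markers, 15 normal and 132 fibrotic cells, went the other way. Their median ratio of the members was 0.842, beside 0.981 for all genes, and 1 member was over 1. In the named endothelial sub-clusters, 1350 and 1416 cells, the 10 ratios ran from 1.11 for Ctsl to 4.60 for Ctss, and 5 were at or above 1.5, beside 8.34% of 4139 genes. Relative to the median of all genes 4 were, against 5 in all endothelium. The fibrotic endothelium also held a sub-cluster of 121 cells with a median of 2149 UMIs and no class name, whose leading genes included the macrophage genes Wfdc17, Vsig4, C6 and Csf2ra. Ctsb was 31.8, Ctsc 3.54 and Ctss 4.59 in it. A vessel-like sub-cluster of 47 cells, with a median of 2187 UMIs, had 29.6, 3.68 and 4.93, and the remaining endothelial sub-clusters were lower for all 3 genes.

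**Figure D5:**
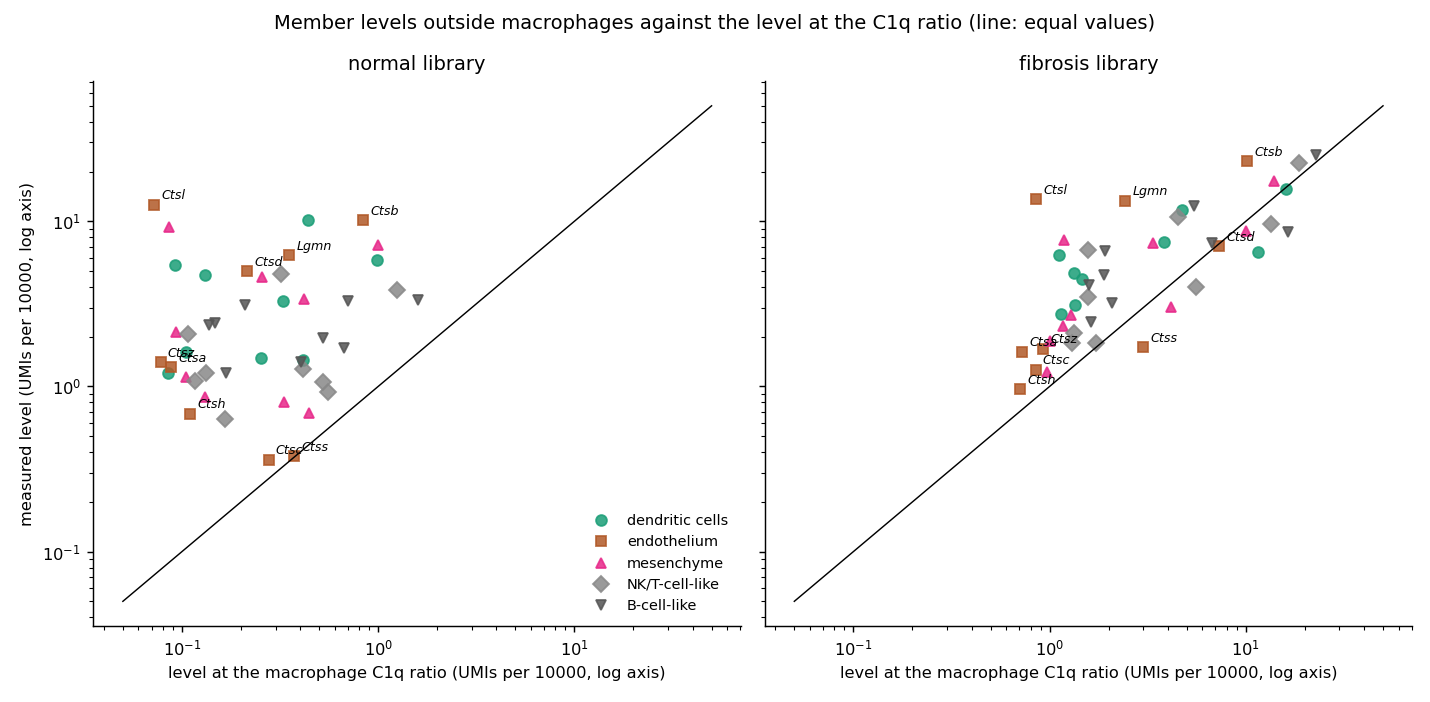
Measured level of each member except Ctsk against its C1q-scaled level (log scale) in classes other than macrophages of the 2 libraries. The classes include dendritic cells, endothelium and mesenchyme. Equal values mean the same ratio to C1qa, C1qb and C1qc as in the macrophages of that library. Among dendritic cells, endothelium and mesenchyme, Ctsl in endothelium is farthest from equality, at 174 and 16.0 times the C1q-scaled level. Fibrotic Ctsd is at 0.969 times it in endothelium, 0.869 times in mesenchyme and 0.564 times in dendritic cells.

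Other lysosomal genes, in 94 genes listed by role, were compared in the same way. In macrophages 31 of the 61 measured genes were at or above 1.5 and 2 at or below 1/1.5, with a median ratio of 1.51. These 31 held 12 of 23 other acid hydrolases, 9 of 15 subunits of the proton pump that acidifies the lysosome, 6 of 10 lysosomal membrane genes and 2 of 7 sorting genes. Atp6v0d2, a pump subunit known from osteoclasts, had 1 UMI in normal macrophages and a level of 2.59 in fibrotic ones (ratio 489, 87.7 to 1.93e+04). Cd63, a membrane protein of late endosomes, was 0.307 and 7.53 (ratio 24.5), and Igf2r, the large mannose 6-phosphate receptor, 0.244 and 1.06 (ratio 4.37). The 2 lower genes were Man2b1, a lysosomal mannosidase, at 7.28 and 4.55 (ratio 0.625), and Tfec, a relative of TFEB, at 1.01 and 0.633 (ratio 0.629), and counted per cell both were higher in the fibrotic library (1.36 and 1.37). In the other groups fewer were past the limits, 11 above and 2 below of 48 in dendritic cells (median 1.27), 7 and 1 of 50 in endothelium (median 1.19) and 11 and 1 of 48 in mesenchyme (median 1.14), against the shares of all genes given above.

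Named by the rule of the 3 largest ratios, the higher genes in dendritic cells were the sulfatase Ids (2.01), the transcription factor Tfe3 (2.0004) and the pump accessory subunit Atp6ap1 (1.95). In endothelium they were Laptm5, a lysosomal membrane gene of blood cells (3.95), Cd63 (1.87) and Psap, the saposin precursor (1.77), and in mesenchyme Laptm5 (3.26), Psap (1.93) and the carboxypeptidase Scpep1 (1.81), with Laptm4a lower at 8.04 and 4.60 (0.572, but 1.16 counted per cell). Of the 9 listed inhibitors of cysteine proteases, 2 were measured, Cst3 and Cstb. Cst3, or cystatin C, which is secreted, was 17.2 and 14.5 in macrophages (ratio 0.840), 124 and 60.4 in dendritic cells (0.489), 9.53 and 4.21 in endothelium (0.442) and 13.4 and 10.7 in mesenchyme (0.801), lower in the fibrotic library in all 4 groups on this scale, although counted per cell the ratio was 1.83 in macrophages and 1.62 in mesenchyme. Cstb, the cytosolic stefin B, was 2.38 and 7.87 in macrophages (3.30), 1.88 and 1.16 in dendritic cells (0.618), 0.994 and 1.36 in endothelium (1.37) and 0.976 and 1.70 in mesenchyme (1.75). Cst7 stayed below the minimum level in each group.

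Patterns over the 18 classes of both libraries, 36 points that share a library and its free RNA, were compared by Pearson correlation of log2(level + 0.1), as a description. Nearest to Ctsb were Grn (0.93), Hmox1 (0.92) and Uap1l1 (0.92), to Ctsd Atp6v1a (0.88), Ctsb (0.88) and Hmox1 (0.86), and to Lgmn Ctsb (0.90), Hmox1 (0.89) and Engase (0.89). Ctsa was nearest to BC005537 (0.92), Fcgr1 (0.92) and Adgre1 (0.91), Ctsc to Abcg3 (0.93), Adgre1 (0.92) and Cfp (0.91), and Ctss to Ly86 (0.94), Cd68 (0.94) and Clec12a (0.93). Of these, Adgre1 is one of the macrophage markers used for naming. Ctsh was nearest to Pld4 (0.89), Ctsz (0.88) and Unc93b1 (0.88), and Ctsz to Atp13a2 (0.89), Cd68 (0.89) and Ctsh (0.88). Ctsk had matrix genes, Mmp2 (0.89), Mrc2 (0.88) and Lama2 (0.87), and Ctsl had no close partner, with Tpp1, Zcchc24 and Itsn1 at 0.72. Among the members themselves Ctsk and Ctsl were the least like the others, with correlations of -0.24 between Ctsk and Ctsh and -0.19 between Ctsl and Ctss.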

How the data were processed

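Single-cell RNA sequencing of liver NPCs of 1 normal and 1 fibrotic mouse was analysed. The authors deposited UMI counts per gene and cell barcode, made with Cell Ranger 3.0.1 on mm10 per the submitters' processing notes, as 1 table per library, neither normalised nor pooled. Every column was assigned to its library and 0 were left unlisted. From the counts, cells with at least 200 genes and at most 10% mitochondrial UMIs were kept (Python 3.11.15, scanpy 1.11.5). The methods of the study state that doublets were excluded with Scrublet. Here Scrublet, at an expected rate of 0.06, called 0 cells in each library and none was removed. Each library was clustered on 2000 variable genes, 10 principal components and 20 neighbours (Leiden, leidenalg 0.10.2, resolution 0.8), and myeloid, endothelial and mesenchymal clusters were split again at 1.5. Members and lysosomal lists were held out of the variable and marker genes. A cluster was named where at least 3 markers of its class were raised, and sub-clusters with at least 2 markers of another lineage among their 10 leading genes, outnumbering their own, got no class name but stayed in the totals of endothelium and mesenchyme. Totals over named sub-clusters alone are an alternative chosen after seeing the data.

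This naming rule and the sub-cluster resolution were settled after the leading genes of the clusters had been seen, over 4 versions, and the earlier sub-cluster resolution of 0.8 is an alternative chosen after seeing the data. The members and lists were chosen with earlier results of these data known. Levels are UMIs of a gene summed over cells per 10000 UMIs, with exact Poisson intervals. Ratios have exact conditional binomial intervals, and shares of cells, thinned to 1000 UMIs with shallower cells left out, have exact Clopper-Pearson intervals. UMIs are molecules after PCR duplicates are merged, and the intervals do not cover differences between mice. Total UMIs per cell ran from 898 to 75847 in the normal and from 815 to 116430 in the fibrotic library. With 1 library per state no test was made. Percentages of genes past a ratio of 1.5 or 1/1.5 cover genes with a mean level of at least 0.5 in the 2 libraries. Named genes were all members, Cst3, Cstb and Cst7, the 3 list genes with the highest and the 3 with the lowest ratio past these limits in each group, and the 3 genes nearest in pattern to each member with a level of at least 1 in any class. The ratio scripts were tested on simulated data. Other scales, mitochondrial limits, resolutions, filters and cell sets were tried as alternatives. Promoter sequences were taken from RefSeq, GRCm38.p6, and gene positions from GENCODE.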

Additional observations from a re-analysis of the deposited data

Results flagged for a closer look

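For 3 members the direction of the ratio of the fibrotic to the normal level differed between cell groups, and with 1 mouse in each state these differences were not tested. Ctsc was lower in the fibrotic library in macrophages, at a ratio of 0.582 (0.560 to 0.606), and higher in dendritic cells (1.46), endothelium (3.49) and mesenchyme (2.92). The macrophage value turned to 1.27 when UMIs were counted per cell. Ctsl was higher in macrophages (2.25) and dendritic cells (2.57), nearly level in endothelium (1.08) and lower in mesenchyme (0.831, but 1.68 counted per cell). Ctsz was higher in macrophages (2.26), endothelium (1.21) and mesenchyme (1.28) and lower in dendritic cells (0.824). With the lowest class level taken off its ratio turned to 0.0168 in endothelium and 0.938 in mesenchyme, and under a mitochondrial limit of 5% to 1.37 in dendritic cells. The summed C1q level, 1.81 in normal and 6.17 in fibrotic endothelium, was also higher in dendritic cells and mesenchyme of the fibrotic library, and its part in the differences was not tested.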

How the results depend on the processing

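No paired analysis was possible because each state was 1 mouse, and no replicate could be left out. Depth limits Ctsk, which had 2 UMIs in normal macrophages and in normal dendritic cells. Of the ratios recomputed for the members, 74 in macrophages, 67 in dendritic cells, 86 in endothelium and 91 in mesenchyme stayed within their counting interval and 44, 51, 44 and 49 moved out of it. That of Ctsc in macrophages, at or below 1/1.5 as reported, was 1.27 counted per cell. The direction turned for 10 of the 40 ratios under at least 1 alternative, and in 5 cases the new value was past a limit. These were Ctsl in mesenchyme counted per cell (1.68), and Ctsa (0.642), Ctsd (0.656), Ctsh (0.642) and Ctsz (0.0168) in endothelium with the lowest class level taken off. Counted per cell, no member was at or below 1/1.5 in macrophages (0, beside 3.06% of genes, also 0 with every cell weighing the same), the median ratio was 4.08 in macrophages and 4.11 in mesenchyme, where 85.5% and 87.5% of all genes were at or above 1.5 and UMIs per cell were 2.17 and 2.02 times as many, and 9 members were at or above 1.5 in endothelium, beside 37.7% of all genes there. With the lowest level over the classes taken off in each library, 3 endothelial members were at or above 1.5 and 4 at or below 1/1.5, and 1 member was at or below 1/1.5 in dendritic cells and 1 in mesenchyme, beside 20.5%, 24.4% and 23.0% of all genes at or below it on that scale. For the other lysosomal genes, a ratio of 2 left 15 above and 0 below in macrophages, 2 and 1 in dendritic cells, 1 above in endothelium, and 1 and 0 in mesenchyme, of 61, 48, 50 and 48 measured, beside 5.29%, 5.99%, 2.48% and 3.81% of all genes above. A mean level of at least 0.1 gave 22 and 5 in dendritic cells, 12 above in endothelium, and 17 and 2 in mesenchyme, of 80, 79 and 80, beside 26.4%, 9.55% and 13.1% of all genes above. With no filter there were 6 below in macrophages, 27 above and 9 below in dendritic cells, 15 and 4 in endothelium, and 22 and 5 in mesenchyme, of 91, 91, 89 and 90, beside 25.2% of all genes below in macrophages and 33.9%, 21.5% and 27.3% above in the other groups. The shares of all genes below were 21.7%, 21.9% and 19.9% in those 3 groups. At a mean level of 0.1 they were 11.5% in dendritic cells and 10.4% in mesenchyme. At a ratio of 2 they were 6.68% in macrophages, 4.95% in dendritic cells and 4.43% in mesenchyme. A constant of 1 in place of 0.1 kept 17 of the 30 genes nearest in pattern. For other moved values the cause was not tested.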

Other observations

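Monocyte-like cells, 119 normal and 198 fibrotic, had 3.85 and 5.87 of Ctsa, next after the macrophage classes in each library (within counting error of macrophage-like cells in the normal one), and 93 of the fibrotic ones formed a sub-cluster led by the interferon-related genes Ifnb1, Ifnl2 and Ccl5 that the normal library lacked. The 119 normal cells formed 1 sub-cluster with markers of classical monocytes, while 51 and 29 of the fibrotic cells had those of non-classical monocytes, so makeup and level cannot be told apart in the ratios that follow. Ctsb was 12.2 in the normal and 57.3 in the fibrotic library (ratio 4.71, 4.38 to 5.06), Ctsd 2.51 and 21.1 (8.42, 7.22 to 9.88) and Lgmn 2.25 and 17.5 (7.77, 6.60 to 9.21). Ctss was already abundant in the normal cells, at 16.8, and was 31.3 in the fibrotic cells (1.86, 1.74 to 1.99). Ctsc, lower in fibrotic macrophages, was higher in fibrotic monocyte-like cells, at 5.17 and 9.74 (1.88, 1.67 to 2.12).

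Plasmacytoid dendritic (pDC-like) cells, 148 and 150, had high Ctsl in both libraries. The normal cells formed 1 sub-cluster, while 47 of the fibrotic cells, with a median of 13901 UMIs, formed a second one whose leading genes, beside pDC markers, held Fbln2, Fmo2, Edn1 and Nts, genes that also led a normal sub-cluster with endothelial markers. Ctsl was 14.4 and 13.4 (0.932), close to that of LSEC-like cells, and Ctsh 9.80 and 7.37 (0.752, 0.686 to 0.824), the highest of the normal classes. The lower fibrotic Ctsh rested on the second sub-cluster, at 4.99, while the other 103 cells had 10.3. Ctsl was 13.1 and 13.7 in these and Lgmn 9.28 and 8.04. Ctsb was 18.9 and 28.1, with a ratio of 1.48, the lowest Ctsb ratio of the 18 classes. Lgmn was 1.01 and 8.72 (8.66, 7.06 to 10.7).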
